A study of Arabidopsis thaliana with 4 samples.

Results

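Heat shock proteins and the factors that control them are described here by protein class and by the cell compartment in which the protein works. The members were a fixed list of 36 loci, found on the arrays through the accession of each probe and not by any measured value. All 36 loci were matched, by 56 probes, among 34290 genes and transcripts measured in all, of which 25410 were loci. The list held HSP101, 4 cytosolic HSP90 genes, 5 cytosolic HSP70 genes, 12 small HSP genes, 6 class A and 3 class B heat shock factor genes, the co-chaperones ROF1 and ROF2, MBF1C, HSA32 and the DNAJ gene AT2G20560.

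The study compared *bli-1*, a T-DNA insertion mutant of *BLISTER* (*BLI*), with the wild type Col-0 of *Arabidopsis thaliana*. Whole seedlings, 12 days old, were grown in continuous light (24 h per day, 20 °C) on half-strength Murashige and Skoog medium (sucrose at 0.5%, MES at 0.05%) after 2 days of stratification at 4 °C. Total RNA of 2 biological replicates per genotype was labelled with Cy3 and hybridised to single colour Agilent arrays, 1 array for each replicate. No seedling was heated, so the values are levels under growth conditions. *bli-1* is a single insertion line, and all values of the mutant come from it.

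Heat shock proteins are molecular chaperones. HSP101 pulls proteins out of aggregates, HSP70 and HSP90 bind and fold client proteins at the expense of ATP, and small HSPs hold unfolding proteins until other chaperones can act. Class A heat shock factors (HSFs) activate these genes by binding heat shock elements in their promoters, and class B factors lack the activation motif and mostly act as repressors. In plants the small HSPs are a large family with separate forms for the cytosol, endoplasmic reticulum (ER), plastid, mitochondrion and peroxisome, and many of them are hardly transcribed without heat.

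Array quality limited what could be seen. Well above background were 74.75% and 76.45% of gene spots on the Col-0 arrays and 77.43% on *bli-1* replicate 1, but 91.71% on *bli-1* replicate 2. The 25th percentile of raw spot intensity was 27 to 29 on the first 3 arrays and 129.5 on *bli-1* replicate 2, which therefore stood apart at its dim end. *bli-1* replicate 1 was alone on slide 2, and the other 3 arrays were on slide 1. *BLI* itself had log2 signals of 9.19 and 9.01 in Col-0 against 7.43 and 7.73 in *bli-1*, which is the direction of the label (log2 fold change −1.52 ± 0.17 SE, adjusted p = 0.0833 in limma). Where its 2 probes lie relative to the insertion was not examined. The seedling tissue markers *RBCS1A*, *CAB1* and *LHCB2.1* (photosynthesis) and *PHT1;1*, *TIP2;3* and *NRT2.1* (root) were above background on all 4 arrays. Of these 6, *NRT2.1*, a root nitrate transporter gene, differed most, at −0.95 ± 0.34 (SE; unadjusted p = 0.038, adjusted p = 0.461, limma). A lower signal from a whole seedling may come from fewer cells of a type or from less RNA per cell, which cannot be told apart here.

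All values below are log2 signals after background correction and quantile normalization, in the order Col-0 replicates 1 and 2, then *bli-1* replicates 1 and 2, and fold changes are *bli-1* minus Col-0. A gene was called up-regulated or down-regulated at an adjusted p below 0.05 and at least a 1.5-fold change in limma's moderated test. None of the 36 members was called. Over all genes and transcripts 35 (0.102%) were called up-regulated and 8 (0.0233%) down-regulated, so very few calls were made anywhere. At an unadjusted p below 0.05 and a 1.5-fold change, 3 members had higher values in *bli-1* and 0 lower values, against 2.5% of all genes and transcripts higher and 2.69% lower. The 3 were the factor gene *HSFA7A* and the cytosolic small HSP genes *HSP17.6B* and *HSP18.2*. Only *HSP17.6B* still passed without Col-0 replicate 1, and only *HSFA7A* without Col-0 replicate 2. For 11 of the 36 both *bli-1* arrays lay above both Col-0 arrays, and for 10 both lay below, against 21.1% and 23% of all genes and transcripts. The median log2 fold change was −0.06 over the members and −0.01 over all genes and transcripts, with 16 members above 0 and 20 below it. With 2 arrays against 2 the smallest p of an exact two-sided permutation test is 0.333.

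**Figure D1:**
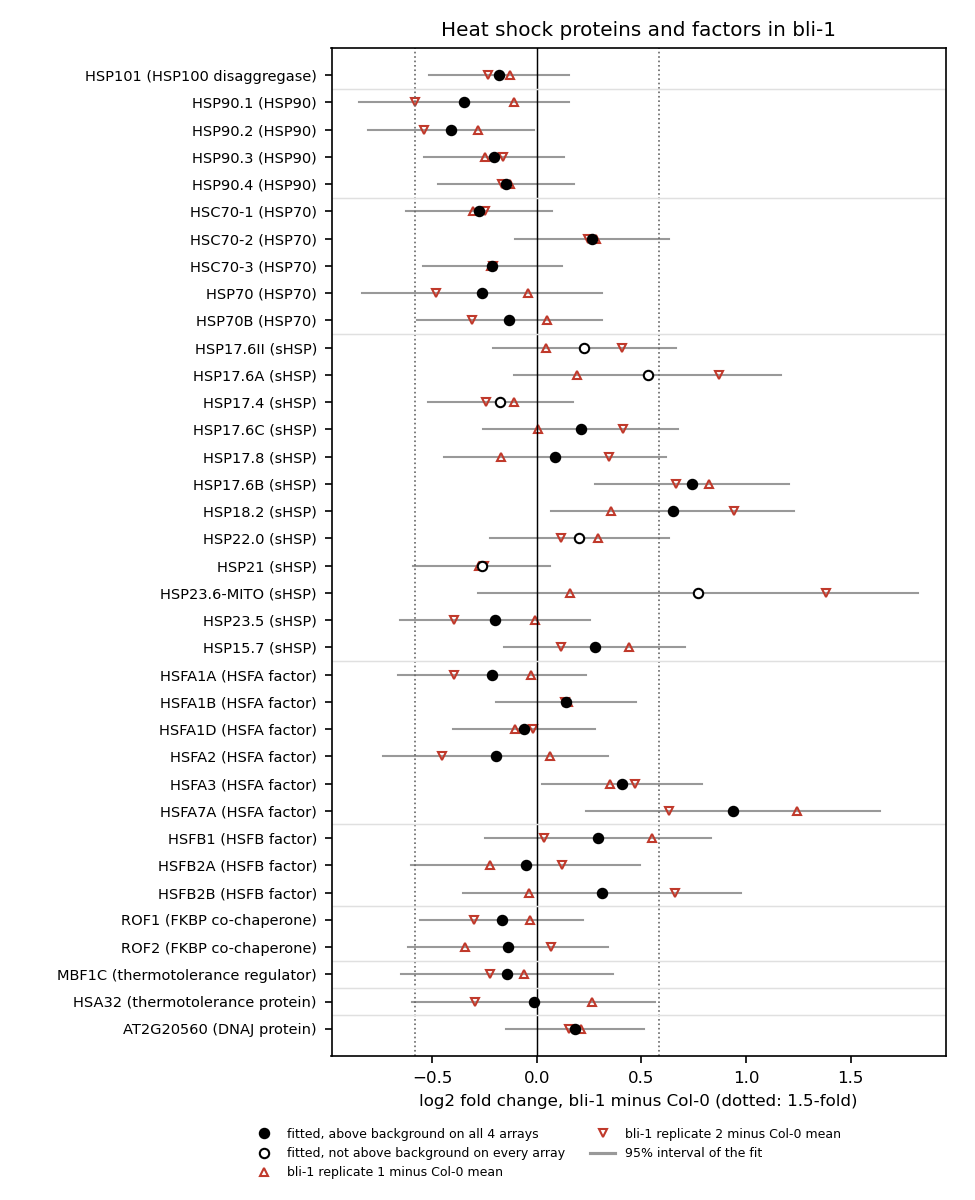
Log2 fold change (horizontal axis) of the 36 members, grouped by protein class; circles are the fitted values, grey lines their 95% intervals, and triangles each *bli-1* array minus the Col-0 mean. The HSP90 values all lie below 0, most small HSP values above it, and for HSP23.6-MITO, HSP17.6A and HSP18.2 *bli-1* replicate 2 lies far to the right of replicate 1.

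Among the 6 class A factor genes 3 had values above 0 and 3 below it, with a median of 0.04. *HSFA1A* (AT4G17750), *HSFA1B* (AT5G16820) and *HSFA1D* (AT1G32330) code for the master activators that are present before any heat. Their fold changes were −0.21, 0.14 and −0.06, with 95% intervals that reached at most from −0.66 to 0.47. *HSFA2* (AT2G26150), the factor that prolongs the response and is strongly heat-induced, had values of 6.91 and 7.03 in Col-0 against 7.03 and 6.52 in *bli-1*. The genotypes overlapped for *HSFA2*, whose fold change was −0.20 with an interval from −0.73 to 0.34.

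*HSFA7A* (AT3G51910), a heat-induced factor gene, had the largest fold change of the 36 members. Its log2 signals were 9.32 and 9.78 in Col-0 against 10.80 and 10.18 in *bli-1*. Both *bli-1* arrays were above both Col-0 arrays, and the difference was 1.92-fold (log2 0.94 ± 0.27 SE, unadjusted p = 0.019, adjusted p = 0.366, limma). The step from the higher Col-0 to the lower *bli-1* array was smaller than the gap between the replicates of either genotype. *HSFA3* (AT5G03720), which in the drought and heat pathways acts downstream of DREB2A, had log2 signals of 8.15 and 8.37 in Col-0 against 8.61 and 8.72 in *bli-1*. The arrays again did not overlap, but at 1.33-fold *HSFA3* stayed under the fold threshold (log2 0.41 ± 0.15 SE, unadjusted p = 0.040, adjusted p = 0.471, limma). Without *bli-1* replicate 2 the log2 fold change of *HSFA7A* was 1.25, and without *bli-1* replicate 1 it was 0.63. Each of these fits leaves 1 mutant array, which is assumed to vary like Col-0, so no p-value is given for them. Over its alternatives the adjusted p of *HSFA7A* went up to 1.

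None of the class B factor genes separated the genotypes. *HSFB2B* (AT4G11660), a repressor gene of the heat response, had the largest fold change among them, with log2 signals of 7.47 and 7.61 in Col-0 against 7.50 and 8.20 in *bli-1*. The first *bli-1* array lay between the Col-0 arrays and only the second was higher, which gave 0.31 ± 0.26 (SE). Leaving out *bli-1* replicate 1 brought *HSFB2B* to 0.66, while leaving out replicate 2 turned it to −0.04. *HSFB1* (AT4G36990) was at 0.29 and *HSFB2A* (AT5G62020) at −0.05, both with overlapping arrays. *HSFB1* rested on *bli-1* replicate 1, since it was at 0.03 without that array and at 0.55 without replicate 2. In *HSFB1*, 2 of the 3 probes separated the genotypes, at 0.47 and 0.44, and the other was at −0.02 with overlap.

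HSP101, the cytosolic disaggregase that survival of severe heat depends on, showed little difference. Log2 signals of *HSP101* (AT1G74310) were 8.65 and 8.64 in Col-0 against 8.52 and 8.41 in *bli-1*. Both mutant arrays were lower, by 0.18 ± 0.13 (SE) on the log2 scale, with an interval from −0.52 to 0.15.

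The 4 cytosolic HSP90 genes were lower in *bli-1* on both arrays, as were 23% of all genes and transcripts, and none passed the threshold. *HSP90.1* (AT5G52640) is the heat-induced form, and *HSP90.2* (AT5G56030), *HSP90.3* (AT5G56010) and *HSP90.4* (AT5G56000) are the constitutive ones, which in plants also keep immune receptors stable. *HSP90.2* had log2 signals of 12.64 and 12.53 in Col-0 against 12.31 and 12.05 in *bli-1*. Its fold change of −0.41 ± 0.15 (SE) was the lowest of all members, at 1.33-fold (unadjusted p = 0.045, adjusted p = 0.483, limma). *HSP90.1* had 8.66 and 8.67 in Col-0 against 8.55 and 8.08 in *bli-1*. Here *bli-1* replicate 2 carried most of the difference of −0.35 ± 0.20 (SE). On that array the dimmer of the 2 probes was at −0.94 against the Col-0 mean and the brighter at −0.22. Raw intensity of the dimmer probe there was 141, near the 25th percentile of that array (129.5). *HSP90.3* had 11.93 and 11.87 against 11.66 and 11.74, and *HSP90.4* had 11.34 and 11.31 against 11.20 and 11.16. Both pairs of arrays still separated, at the small differences of −0.20 and −0.15. The median over the 4 genes was −0.28, and all 4 were below 0 under each of the 15 alternatives to the processing, whether or not these moved the median of all genes. Without *bli-1* replicate 1, *HSP90.1* was at −0.58 and *HSP90.2* at −0.54, both under 1.5-fold. Over the 15 alternatives the adjusted p of these 2 genes went up to 1.

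**Figure D2:**
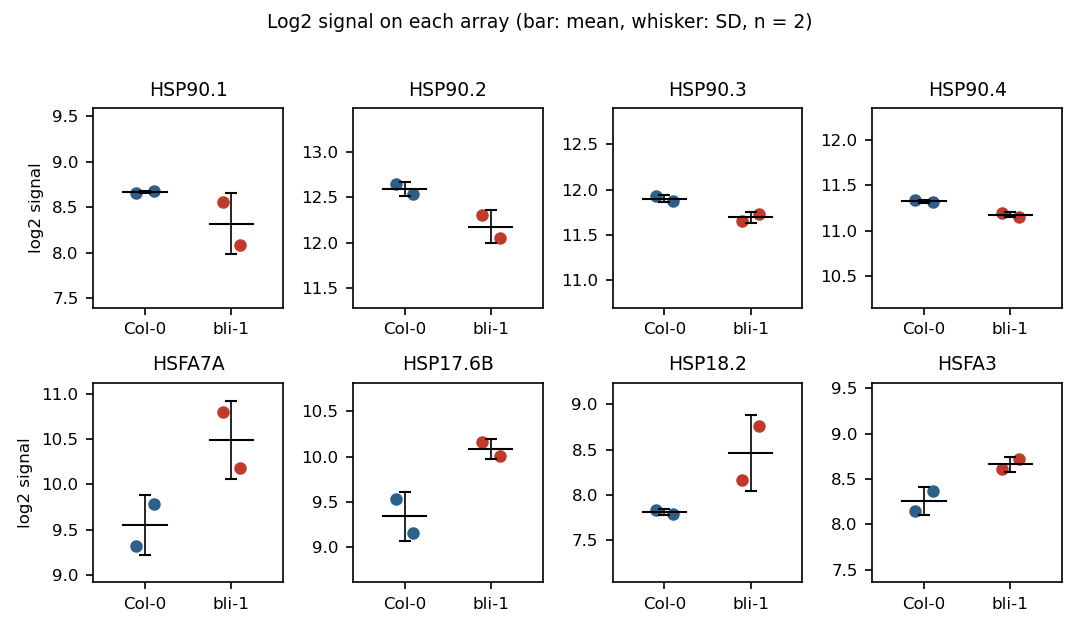
Log2 signal on each array (vertical axis, of the same span in every panel) for the 4 HSP90 genes, the 3 members past the unadjusted threshold and *HSFA3*; bars are means and whiskers the SD of 2 arrays. In each panel the *bli-1* arrays lie wholly on 1 side of the Col-0 arrays, lower for HSP90 and higher for the other 4. The panels were chosen with the values known, and of all genes and transcripts 21.1% lie wholly higher and 23% wholly lower.

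The 5 cytosolic HSP70 genes lay between −0.28 and 0.26. *HSC70-1* (AT5G02500), a constitutive cytosolic HSP70 gene, was farthest from 0, with log2 signals of 11.63 and 11.78 in Col-0 against 11.40 and 11.46 in *bli-1* (−0.28 ± 0.14 SE). *HSC70-3* (AT3G09440), another constitutive form, was lower by a like amount, with 10.02 and 10.11 against 9.84 and 9.85 (−0.21 ± 0.13 SE). *HSC70-2* (AT5G02490) went the other way, with 10.33 and 10.54 in Col-0 against 10.72 and 10.68 in *bli-1* (0.26 ± 0.14 SE). For these 3 constitutive genes the arrays of the genotypes did not overlap, yet each interval included 0. *HSC70-2* is the direct neighbour of *HSC70-1* among the protein-coding genes of the RefSeq annotation (TAIR10.1), and the pair had opposite signs in these seedlings. The heat-induced forms *HSP70* (AT3G12580) (11.37 and 11.75 against 11.52 and 11.08) and *HSP70B* (AT1G16030) (7.23 and 7.32 against 7.33 and 6.97) overlapped, at −0.26 and −0.13. *bli-1* replicate 2 was the lowest array for both.

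Of the 12 small HSP genes 9 had values above 0 and 3 below it, with a median of 0.22. The values depended on the scaling and on the library. The median was 0.10, with 8 above 0 and 4 below, without *bli-1* replicate 2, and 0.38 without *bli-1* replicate 1. The count became 7 above and 5 below with scaling to the 75th percentile after the same background correction, a setting with a median of 0.06 that moved the median of all genes to −0.12. With the scanner software's own signal scaled in this way, which moved that median to 0.27, it became 11 and 1, with a median of 0.99. On all 4 arrays 6 of the 12 genes exceeded background, of which 5 were above 0 and 1 below, with a median of 0.24. Small HSP genes above background numbered 7 on each Col-0 array, 6 on *bli-1* replicate 1 and 12 on *bli-1* replicate 2. The gain of the last array therefore came together with its raised share of spots above background over the whole array, and how much of it belongs to the small HSP genes was not tested.

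In the cytosol, *HSP17.6B* (AT2G29500) had log2 signals of 9.53 and 9.15 in Col-0 against 10.17 and 10.01 in *bli-1*. Both mutant arrays were higher by more than the replicates of either genotype differed, and the fold change was 1.67 (log2 0.74 ± 0.18 SE, interval 0.28 to 1.21, unadjusted p = 0.009, adjusted p = 0.285, limma). *HSP18.2* (AT5G59720), a classic strongly heat-induced class I small HSP gene, had 7.83 and 7.79 in Col-0 against 8.17 and 8.76 in *bli-1*. The *bli-1* arrays did not overlap Col-0 but differed from each other by more than the first differed from Col-0. This gave 1.57-fold (log2 0.65 ± 0.23 SE, unadjusted p = 0.035, adjusted p = 0.449, limma). Over the 15 alternatives *HSP17.6B* ranged from 0.55 to 0.93 and *HSP18.2* from 0.35 to 1.05, so neither changed direction. Without *bli-1* replicate 1 they were at 0.66 and 0.94, and without replicate 2 at 0.82 and 0.35. Each of these fits leaves 1 *bli-1* array, which is assumed to vary like Col-0, so no p-value is given for them. Over the alternatives the adjusted p of both genes went up to 1.

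The other cytosolic forms were dimmer or overlapped. *HSP17.8* (AT1G07400) had 7.81 and 7.88 in Col-0 against 7.67 and 8.19 in *bli-1*, and *HSP17.6C* (AT1G53540) had 6.72 and 6.79 against 6.76 and 7.17, so that in both genes *bli-1* replicate 2 alone lay above all other arrays. The class II genes *HSP17.6II* (AT5G12020) and *HSP17.6A* (AT5G12030), which are direct neighbours in the annotation, were not well above background on either Col-0 array or on *bli-1* replicate 1. Raw intensities of the pair lay between 22 and 26 on those 3 arrays, against 194.5 (*HSP17.6A*) and 159 (*HSP17.6II*) on *bli-1* replicate 2. Only the last array measured either gene, and both values lay between its 25th percentile (129.5) and its median (319). With quantile normalization, group means against the Col-0 floor were 1.44-fold higher for *HSP17.6A* and 1.17-fold higher for *HSP17.6II*. Intervals of the fit were −0.11 to 1.17 and −0.21 to 0.67 on the log2 scale. With 75th percentile scaling after background correction the fitted values were 0.21 and 0.03. Both bounds rest on *bli-1* replicate 2, without which neither genotype measured the genes and no fold change is given. A bound of this kind sets the mean of the brighter genotype over all its arrays against the other genotype's mean. In the latter an array below background counts at its own signal or at the lowest signal measured there, whichever is higher. In the brighter genotype such an array counts at its own signal, so the bound is not a firm minimum. *HSP17.4* (AT3G46230), the remaining class I gene, was also above background on *bli-1* replicate 2 alone, yet its normalized log2 signals were 6.53 and 6.47 in Col-0 against 6.39 and 6.26 in *bli-1*, so no fold change is given. Its raw intensity of 76 on that array was lower than the 25th percentile there, as were those of *HSP22.0* (AT4G10250) and *HSP21* (AT4G27670), at 98 and 114.

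The small HSPs of the organelles gave no common direction. *HSP23.6-MITO* (AT4G25200), for the mitochondrion, had log2 signals of 6.32 and 6.14 in Col-0 against 6.39 and 7.61 in *bli-1*. Its raw intensities were 24 and 23 against 22 and 255, so that *bli-1* replicate 2 measured the gene and the other 3 arrays did not. The 255 was still below the median raw intensity of that array, 319. The bound was 1.68-fold higher with quantile normalization. The interval of the fit was −0.28 to 1.82 on the log2 scale (adjusted p = 0.610, limma). With 75th percentile scaling after background correction the fitted value was 0.38. *HSP23.5* (AT5G51440), the other mitochondrial form, was measured on all 4 arrays and lay at −0.20 with overlap (7.77 and 7.69 against 7.72 and 7.33). The mitochondrial pair thus had opposite signs, and in both it was *bli-1* replicate 2 that lay farthest from the rest.

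*HSP21*, the plastid form, was above background on both Col-0 arrays and on *bli-1* replicate 2. Its log2 signals were 6.74 and 6.69 in Col-0 against 6.44 and 6.46 in *bli-1* (−0.26 ± 0.13 SE, interval −0.59 to 0.06). The size depended on the signal used, at −0.55 with offset 0 and −1.12 with the scanner software's signal quantile normalized, where *HSP21* passed the unadjusted threshold (unadjusted p = 0.00723, adjusted p = 0.498, limma; adjusted p 0.210 to 1 over its alternatives). Both mutant arrays were lower after normalization although the raw intensity on *bli-1* replicate 2, at 114, was the highest of the 4. *HSP22.0*, the form of the ER, was above background on *bli-1* replicate 2 only (raw 98, against 22 to 25 on the others) with log2 signals of 6.39 and 6.10 against 6.54 and 6.36 that overlapped. The group mean of *HSP22.0* against the Col-0 floor was 1.12-fold higher with quantile normalization, and the interval of its fit was −0.22 to 0.63 on the log2 scale. Its fitted value of 0.20 turned to −0.18 with 75th percentile scaling after background correction. Without Col-0 replicate 2 this value was 0.06, so the direction is not settled. The peroxisomal *HSP15.7* (AT5G37670) was higher on both *bli-1* arrays, at 8.29 and 7.96 against 7.78 and 7.92, but the lower mutant array nearly touched Col-0 (0.28 ± 0.17 SE).

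The values of dim small HSP genes rested on 1 library. Without *bli-1* replicate 1, the bound was 1.83-fold higher for *HSP17.6A* and 2.57-fold higher for *HSP23.6-MITO*, from *bli-1* replicate 2 alone. Without replicate 2 no array measured either gene, and no fold change is given. Their adjusted p ranged up to 1 over the alternatives.

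The remaining members are partners and regulators of the chaperones. *ROF1* (AT3G25230) and *ROF2* (AT5G48570) code for FK506-binding co-chaperones of HSP90, *MBF1C* (AT3G24500) for a transcriptional coactivator needed for heat tolerance, and *HSA32* (AT4G21320) for a protein that prolongs acquired thermotolerance. *ROF1* had log2 signals of 10.71 and 10.68 in Col-0 against 10.66 and 10.40 in *bli-1* (−0.17 ± 0.15 SE), and *ROF2* was at −0.14 with overlapping arrays. *MBF1C* had 11.69 and 12.14 against 11.86 and 11.69, so that its Col-0 replicates differed more than the genotypes did (−0.14 ± 0.20 SE). *HSA32* had 7.58 and 7.78 against 7.94 and 7.39, at −0.02 ± 0.23 (SE), with the mutant arrays on either side of Col-0. The DNAJ co-chaperone gene AT2G20560 was higher on both *bli-1* arrays by a small step, with 8.16 and 8.13 against 8.35 and 8.30 (0.18 ± 0.13 SE). None of these 5 genes passed the unadjusted threshold.

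For 11 members the array carried several probes, and in 7 of them the probes had fold changes of both signs. The 8 probes of *HSC70-1* were all below 0, from −0.60 to −0.04. Both probes of *HSP90.2* gave nearly the same value, at −0.42 and −0.40. In *HSP90.3* the 3 probes were at −0.39, −0.33 and 0.11, and in *HSP90.4* the 2 probes were at −0.40 and 0.11. The small negative means of these 2 genes are thus averages of probes that did not share a direction. *HSP90.2*, *HSP90.3* and *HSP90.4* lie side by side in the annotation or nearly so, and code for almost identical proteins. Probe sequences were not used here, so a probe of 1 gene may also have bound transcripts of another, and the assignment of a value to 1 of the 3 is uncertain. The same holds for the constitutive HSP70 genes, where *HSC70-3* had probes at −0.43, −0.38 and 0.17.

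**Figure D3:**
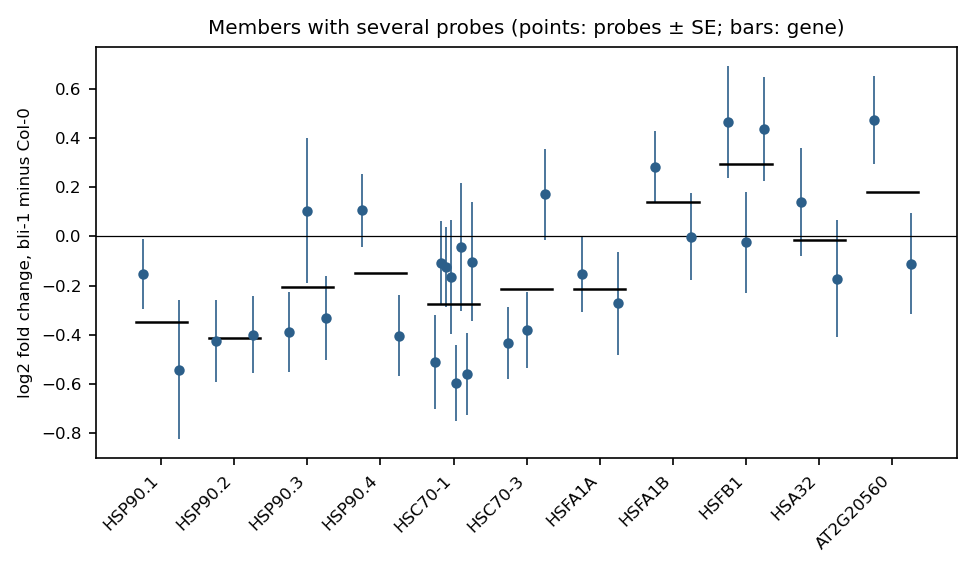
Log2 fold change ± SE of each probe (points) for the 11 members with several probes, with the gene's value as a black bar. *HSC70-1*, *HSP90.1*, *HSP90.2* and *HSFA1A* have all probes below 0, whereas probes of *HSP90.3*, *HSP90.4*, *HSC70-3*, *HSA32* and AT2G20560 lie on both sides, as do, with 1 probe each just below 0, those of *HSFA1B* and *HSFB1*.

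To place these values, 48 further chaperone and HSF genes in 5 lists were read in the same fit. Of the other 12 HSF genes 10 were above 0 and 2 below, with a median of 0.24, and none was called or past the unadjusted threshold with 1.5-fold. Set against the Col-0 mean, their median was 0.18 on *bli-1* replicate 1 and 0.47 on replicate 2. Only 10 of the 12 were above background on all 4 arrays, and *HSFA9* was so on neither Col-0 array. By *bli-1* array, *HSFA9* was at −0.22 and 1.41 and *HSFB3* at 0.20 and 1.39. *HSFA4A*, which codes for a factor linked to oxidative stress, had 9.07 and 9.27 in Col-0 against 9.66 and 9.63 in *bli-1* (0.47 ± 0.14 SE, unadjusted p = 0.020, adjusted p = 0.371, limma). The other 7 small HSP genes had a median of −0.08, with 3 above 0, and none was past either threshold.

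The ER-lumen relatives of HSP70 and HSP90 were set beside the cytosolic ones. *BIP3*, the stress-induced HSP70 gene of the ER, was called up-regulated, with log2 signals of 6.73 and 6.66 in Col-0 against 10.21 and 10.33 in *bli-1* (3.58 ± 0.13 SE, adjusted p = 0.006, limma). The fold change of *BIP3* stayed between 3.52 and 6.49 under the 15 alternatives, but its call was lost in 7 of them, among these each Col-0 array left out, where the adjusted p was 0.435 and 0.501 (range over the alternatives 4.04e-05 to 1). *BIP1* was at 0.66 (unadjusted p = 0.005, adjusted p = 0.231, limma), *HSP90.7* at 0.40 and *BIP2* at 0.33. All 4 were above 0 with no overlap of the arrays, as were 21.1% of all genes and transcripts, and the intervals of *BIP2* and *HSP90.7* included 0. All 4 cytosolic HSP90 genes and 4 of 5 cytosolic HSP70 genes were below 0, as were 17453 of all 34290 genes and transcripts. The difference between these lists was not tested, nor was it checked whether probes of *BIP1* and *BIP2* also bound each other's transcripts. In the 11 heat-induced and DNAJ genes outside the members, *ERDJ3A*, a DNAJ gene of the ER, was called at 3.34 ± 0.14 (SE, adjusted p = 0.008, limma), and the other 10 lay between −0.32 and 0.35. The call of *ERDJ3A* was lost in 7 of the 15 alternatives as well, at fold changes between 3.26 and 4.16 over all 15.

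Among 14 organellar and further cytosolic HSP100, HSP90, HSP70 and HSP60 genes, 11 were below 0, with a median of −0.31. The plastid chaperonin genes, whose products fold Rubisco subunits and other stromal proteins, were the lowest. *CPN60A* had 12.84 and 12.10 in Col-0 against 10.68 and 10.70 in *bli-1* (−1.78 ± 0.26 SE, unadjusted p = 0.001, adjusted p = 0.128, limma), and *CPN60B* was at −0.68 (unadjusted p = 0.041, adjusted p = 0.472, limma). Neither was called, and for *CPN60A* the Col-0 replicates differed by 0.74. The mitochondrial *MTHSC70-1* and *MTHSC70-2* were at 0.15 and 0.10, the highest values of this list, in which 3 genes were above 0. *HSP90.6* was at −0.56 with no overlap of the arrays (unadjusted p = 0.030, adjusted p = 0.431, limma). *HSP60* was at −0.09 and *CLPB4* at −0.02, both with overlap.

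**Figure D4:**
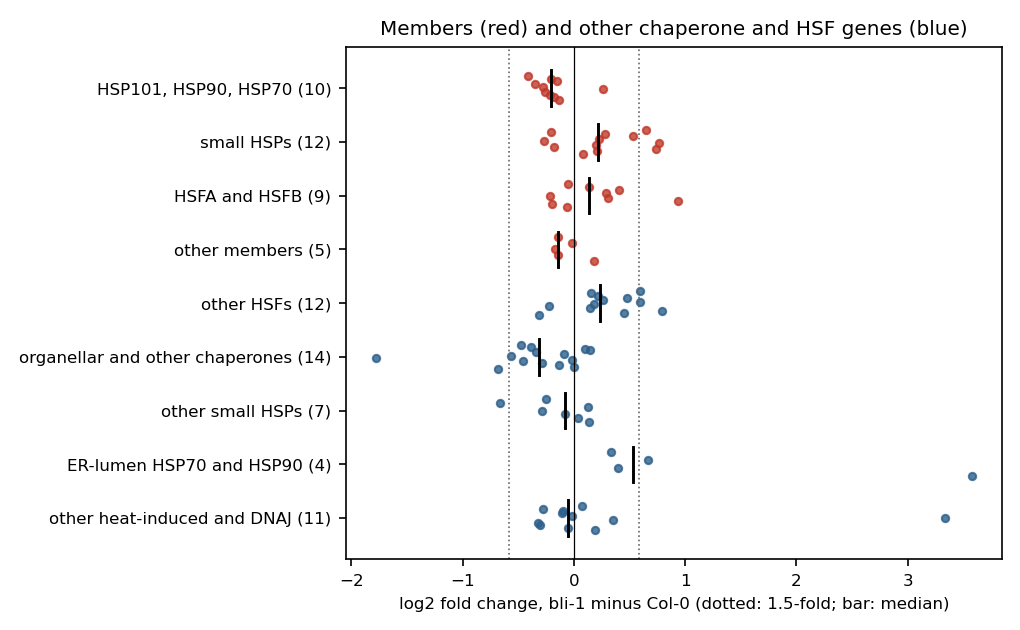
Log2 fold change (horizontal axis) of each member (red) and of the 48 further chaperone and HSF genes (blue), with the number of genes in brackets and the median as a black bar. The ER genes *BIP3* and *ERDJ3A* stand alone at 3.58 and 3.34 and *CPN60A* at −1.78, while every member lies between −0.41 and 0.94.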

How the data were processed

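RNA of 12-day-old Col-0 and *bli-1* seedlings was measured on 4 arrays, 2 per genotype. The authors deposited the scanner output of each array (Feature Extraction 11.0.1.1), in which the values are spot and local background intensity, not normalized between arrays. Following the methods of the study, background was corrected and arrays were quantile normalized with limma 3.58.1 in R 4.3.3. The kind of correction (normexp on median spot and background intensities, offset 50) was a choice made here. The offset shrinks differences of dim probes. Control spots and spots marked as outliers were left out, and 0 spots were marked as saturated. Replicate spots were averaged to probes and probes to loci, with accessions matched to loci through a RefSeq table. Genotypes were compared by lmFit and eBayes over all 34290 genes and transcripts, with Benjamini-Hochberg adjustment, and the prior had 3.02 degrees of freedom. The labels do not say that replicates came from separate cultures. The p-values therefore set the genotype difference against the spread between these samples, moderated by the prior. Precision is limited with 2 arrays per genotype.

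The members and the lists were chosen with earlier results of these data known. Every member is named; values on each array are given for members past the unadjusted threshold and for the member with the largest absolute change of each class, and beyond this rule for others chosen after their values were seen. From the further lists, genes past the unadjusted threshold with 1.5-fold are named by rule, and others were chosen after their values were seen. Alternatives were 15 in number: other offsets, normalizations and signal columns, a filter on dim probes, outlier spots kept, single probes, trended and robust eBayes, slide and replicate number as blocks, and each array left out. No sequence of a probe, promoter or protein was used here.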

Additional observations from a re-analysis of the deposited data

How the results depend on the processing

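Over the 36 members and 15 alternatives 535 fold changes were computed, of which 500 kept direction and side of the threshold, 12 became calls and 23 changed sign, while 23 of 36 members kept their direction throughout. No member was called under any alternative that kept all 4 arrays apart from the slide block. With slide as a block, 5 members were called higher and 6 passed the unadjusted threshold, and 3242 genes and transcripts were called higher and 2486 lower in all; slide 2 holds *bli-1* replicate 1 alone, so this equals leaving that array out, and the lone *bli-1* array is then assumed to vary like Col-0. When each array was left out in turn, members called higher ranged from 0 to 5, those past the unadjusted threshold from 1 to 6, and all calls from 0 to 3242 higher and 0 to 2486 lower. With the replicate block, 2 genes and transcripts were called higher and 0 lower, and no call among the members changed; deviations of same-numbered arrays correlated at 0.069, so the numbers were not taken as pairs.

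All calls were 0 and 0 with offset 0, with the scanner software's signal under both scalings and with 75th percentile scaling, 11 higher and 1 lower with offset 16, 84 and 30 with dim probes left out, 86 and 42 with trended and robust eBayes, and 46 and 16 by brightest probe. The unadjusted threshold was passed by 1 member higher (*HSP17.6B*) and 1 lower (*HSP21*) with the software's signal after quantile normalization, by 1 with its 75th percentile scaling, and by 0 with that scaling after background correction. Signs turned with the software's signal scaled to the 75th percentile for *HSP70B* (0.52), *HSP17.4* (0.69), *HSP23.5* (0.15), *HSFA1A* (0.18), *HSFA1D* (0.036), *HSFA2* (0.39) and *HSA32* (0.43), of which *HSP23.5*, *HSFA1A* and *HSFA1D* stayed below the shift of all genes, 0.27. They also turned for *HSFA1D* with that signal quantile normalized (0.018), for *HSP17.8* (−0.016) and *HSP22.0* (−0.18) with 75th percentile scaling after background correction, for *HSFB2A* (0.12) and *ROF2* (0.067) with the slide block, and for *HSA32* by brightest probe (0.14). With each array left out, *HSP70B* ranged from −0.31 to 0.049, *HSP17.8* from −0.17 to 0.34, *HSFA2* from −0.45 to 0.061, *HSFB2A* from −0.26 to 0.16, *HSFB2B* from −0.040 to 0.66, *ROF2* from −0.34 to 0.067, *MBF1C* from −0.37 to 0.083 and *HSA32* from −0.29 to 0.26. The cause of these changes was not tested. Members dim on 3 arrays have only a bound, and 2 arrays per genotype limit all tests.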
